A study of Mus musculus with 6 samples.

Results

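Oleate, a monounsaturated fatty acid, was compared with its albumin carrier in C2C12 myotubes, on the 4 of the 6 arrays of the series that carried these treatments. C2C12 is an established mouse myoblast line whose cells fuse into multinucleated, contractile-protein-rich myotubes when serum is lowered. Cells were kept in 10% serum on coated plates and differentiated in 2% serum. They were then transfected with 10 nM of a scrambled siRNA or of an siRNA against Plin2, the gene of a lipid droplet coat protein. For 20 h they received 200 µM oleate bound to bovine serum albumin (BSA) at 2.5 fatty acids per BSA, or BSA alone. The scrambled siRNA groups were BSA (1 array) and oleate (1 array), and the Plin2 siRNA groups were BSA (1 array) and oleate (1 array). All of these cultures had been transfected, so none of the controls was free of siRNA or transfection reagent, and a single cell line was used. Palmitate, a saturated fatty acid with a shorter chain and no double bond, was given at the same dose and time to 1 culture of each siRNA. Those 2 arrays enter below in the direct comparison between the fatty acids. They also entered the main fit behind the adjusted p-values of oleate against BSA, where they add to the estimate of the spread.

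Each culture was measured on 1 array, so the replicate of the oleate change is the siRNA: 1 difference came from the scrambled pair and 1 from the Plin2 siRNA pair (n = 2 pairs). No condition had more than 1 array, so the spread behind a p-value is how far the treatment differences disagree between the 2 siRNAs. That spread mixes any effect of the Plin2 siRNA on the response with variation between arrays, which may be technical. The labels do not say whether the cultures were grown separately. The deposited table held 35556 probe sets, and the comparison covered the 21789 of them that were tied to 1 gene symbol. These stand for 19938 genes, each represented by the probe set of highest mean signal. All values are log2 expression values, a change is a difference of log2 values, and adjusted p is the Benjamini-Hochberg value of a limma test over the 21789 probe sets, with a threshold of 0.05. The number of arrays limits the precision, and the median standard error (SE) of an oleate change was 0.13.

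Inside a muscle cell, fatty acids are esterified into triglyceride and stored in droplets, or passed to mitochondria through the carnitine shuttle and oxidised. Fatty acids also act as ligands of the PPAR nuclear receptors, which raise genes of fatty acid oxidation and of droplet coating. A separate system sets lipid synthesis: the Insig proteins hold the SREBP transcription factors, bound to Scap, in the endoplasmic reticulum. When released, the SREBP factors raise the enzymes of cholesterol synthesis (SREBP-2) and of fatty acid synthesis and desaturation (SREBP-1c). Unsaturated fatty acids are known to restrain SREBP-1, and LXR receptors raise the SREBP-1c gene in response to oxysterols.

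The arrays carried the expression of differentiated muscle. All 10 markers of skeletal myotubes lay above the median of all genes, with means over the 6 arrays from 9.44 (the giant spring protein Ttn) to 13.62 (skeletal actin, Acta1), against medians of 5.74 to 5.76 over all genes on the 4 arrays. The median of these markers was 12.29 in scrambled BSA, 12.20 in scrambled oleate and 11.93 in Plin2 siRNA BSA, and lay between the last 2 values in Plin2 siRNA oleate. The 5 markers of undifferentiated myoblasts were also above the gene median (median 8.04), among them Pax7 at 7.75. Of 6 fibroblast markers, 4 were above it, with the collagen Col3a1 at 11.85 and Lum at 2.68. The 5 measured defining markers of adipocytes (Adipoq, Lep, Plin1, Fabp4 and Cidec), 4 of macrophages and 4 of endothelial cells were below it, with medians of 3.80, 3.64 and 4.03. Lipe, in the longer adipocyte list and also a gene of muscle lipolysis, was above it (mean 6.16). Oleate changes of the myotube markers ran from -0.26 (Casq1) to 0.03 (Tnnt3), those of the myoblast markers from -0.11 to 0.42 and those of the fibroblast markers from 0.03 to 0.32, and 0 of these passed the threshold. In bulk RNA of this kind, fewer cells of a type and less RNA per cell cannot be told apart.

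Oleate moved few genes past the threshold. In all, 7 probe sets rose (0.0321% of those tested) and 9 fell (0.0413%), each of a different gene. An unadjusted p under 0.05 was found for 1365, where about 1089 would be expected if no gene changed. The genes that rose were those of fatty acid handling, Angptl4, Pdk4, Cpt1a and Plin2, with Rnf145, Malat1 and Mt2. Those that fell were 5 enzymes of sterol synthesis (Fdps, Cyp51, Msmo1, Nsdhl, Tm7sf2), the desaturases Scd2 and Fads2, the sterol sensor Insig1 and the gap junction gene Gja5. One array decided most of these calls. Without the scrambled BSA array, 3 genes remained past the threshold (Angptl4, Cpt1a and Pdk4), while the other 13 lost their call. Their changes kept their direction there, with adjusted p between 0.139 (Nsdhl) and 0.731 (Mt2). The calls also rest on the intensity trend of the fit, without which 2 of the 16 remained (Angptl4 and Cpt1a). They rest on the set of probe sets too: 0 passed, with 2112 at an unadjusted p under 0.05, when unnamed probe sets were included. In the other direction, a fit to the 4 BSA and oleate arrays alone called 64 probe sets, 28 higher and 36 lower, with the 16 among them.

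**Figure D1:**
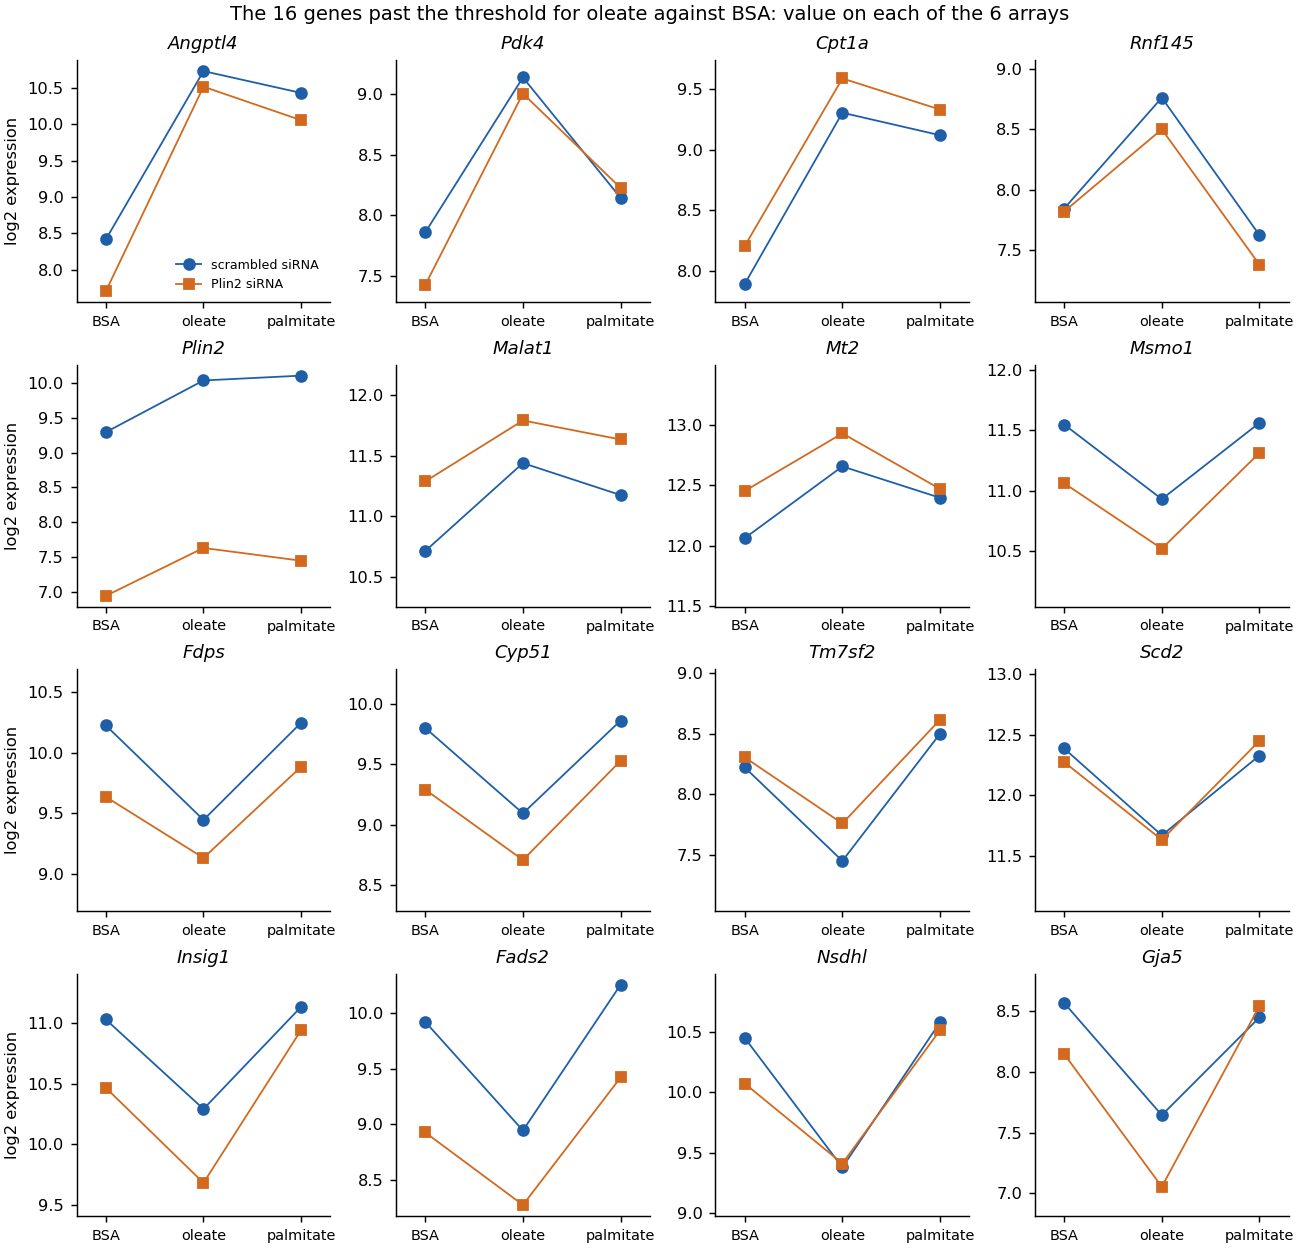
Log2 expression (vertical axes, each panel with its own range) of the 16 genes past the threshold for oleate against BSA, on each of the 6 arrays. Circles are scrambled siRNA and squares Plin2 siRNA, 1 array a point, and lines join arrays of one siRNA. In each panel both oleate points lie on the same side of the BSA point of their siRNA, and for the 9 falling genes the palmitate points lie well above the oleate points. The oleate values also served to select these genes.

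The promoters of 4 of the 5 sterol enzymes that fell and of Insig1 are printed here because each holds the short box described next. Sterol genes are textbook targets of SREBP together with NF-Y, a factor that binds the letters CCAAT, so these letters were searched on both strands in the 250 bases before the start of the gene (RefSeq, assembly GRCm38.p6). Each sequence below runs 5′ to 3′ on the strand of its gene, and capitals mark CCAAT or its reverse complement ATTGG.
Nsdhl, chrX:72918271-72918520, plus strand: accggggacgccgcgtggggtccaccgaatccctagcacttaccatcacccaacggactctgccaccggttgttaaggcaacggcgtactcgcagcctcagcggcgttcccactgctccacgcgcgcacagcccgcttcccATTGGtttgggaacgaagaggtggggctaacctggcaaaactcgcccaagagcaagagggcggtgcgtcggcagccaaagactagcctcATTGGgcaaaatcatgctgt
Msmo1, chr8:64733579-64733828, minus strand: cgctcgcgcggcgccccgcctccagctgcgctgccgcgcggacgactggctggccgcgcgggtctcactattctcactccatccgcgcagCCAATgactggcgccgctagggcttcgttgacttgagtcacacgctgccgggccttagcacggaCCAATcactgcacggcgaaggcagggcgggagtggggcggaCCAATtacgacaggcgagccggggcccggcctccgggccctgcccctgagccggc
Cyp51, chr5:4104698-4104947, minus strand: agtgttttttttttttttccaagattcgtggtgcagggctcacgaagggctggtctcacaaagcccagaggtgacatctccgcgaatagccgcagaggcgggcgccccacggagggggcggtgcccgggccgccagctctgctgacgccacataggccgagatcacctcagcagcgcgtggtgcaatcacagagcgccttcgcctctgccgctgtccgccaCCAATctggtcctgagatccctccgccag
Tm7sf2, chr19:6067851-6068100, minus strand: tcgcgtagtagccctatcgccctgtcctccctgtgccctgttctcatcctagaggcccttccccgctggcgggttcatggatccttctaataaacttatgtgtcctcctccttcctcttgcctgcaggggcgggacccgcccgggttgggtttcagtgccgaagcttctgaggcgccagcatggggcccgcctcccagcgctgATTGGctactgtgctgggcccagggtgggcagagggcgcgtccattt
Insig1, chr5:28071162-28071411, plus strand: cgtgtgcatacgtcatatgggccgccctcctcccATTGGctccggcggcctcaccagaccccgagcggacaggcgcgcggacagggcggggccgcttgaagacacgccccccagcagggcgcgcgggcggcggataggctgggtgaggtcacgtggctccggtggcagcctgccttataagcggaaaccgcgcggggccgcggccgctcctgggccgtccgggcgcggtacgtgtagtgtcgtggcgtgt

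The first base of the box lay 109 and 20 bases before the start in Nsdhl, 160, 96 and 55 in Msmo1, 29 in Cyp51, 47 in Tm7sf2 and 216 in Insig1. Of the cholesterol synthesis genes, 17 of 23 had an entry in the table, and 16 of these 17 held the box, the exception being Acat2. Over the whole table, 37.5% of 27025 genes held it in a window of the same length (33.8% of promoters). It was present in 5 of the 7 falling genes with an entry and in 3 of the 6 rising genes with an entry. A stricter sterol response element, TCACNCCAC on either strand, stood in 1 of the 17, Hmgcs1, and in Malat1, against 1.22% of all genes. The stretch of Hmgcs1, shown because it is the one match among the sterol genes, runs as follows, with the element in capitals.
Hmgcs1, chr13:119690174-119690262, plus strand: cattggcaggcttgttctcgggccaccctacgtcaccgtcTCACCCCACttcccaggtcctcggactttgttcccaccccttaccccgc
The E-box CACGTG, a further SREBP-binding sequence, was found in 3 of the 17 (6.86% of all genes). The PPAR element DR1, searched only as an exact match, stood in 0 of the 17 sterol, 6 rising and 7 falling genes with an entry. Angptl4 had no entry and was not searched. An exact match was rare, in 11 of 27025 genes (0.0407%). In sets this small 0 was therefore likely, and it says little about PPAR elements. The motifs were searched separately, so that matches of different motifs can overlap. A match describes letters and not binding.

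Angptl4, which encodes a secreted inhibitor of lipoprotein lipase and is a PPAR target, showed the largest rise. Its log2 value was 8.41 in scrambled BSA and 10.73 in scrambled oleate, and 7.70 in Plin2 siRNA BSA and 10.52 in Plin2 siRNA oleate. Both oleate arrays lay far above both BSA arrays. The fitted change was 2.57 (SE 0.11, adjusted p = 1.2e-06), or 5.94-fold. Pdk4 encodes the kinase that shuts off pyruvate dehydrogenase and so holds back glucose oxidation. It stood at 7.86 and 9.14 in scrambled BSA and oleate, and at 7.43 and 9.01 with Plin2 siRNA, without overlap between the treatments. Its change was 1.43 (SE 0.12, adjusted p = 0.00058). Cpt1a, the outer-membrane carnitine palmitoyltransferase that commits fatty acids to mitochondria, went from 7.89 to 9.31 with scrambled siRNA and from 8.20 to 9.59 with Plin2 siRNA, again without overlap. The change was 1.40 (SE 0.08, adjusted p = 2.9e-05), and its pair differences of 1.42 and 1.38 were the closest of these genes. These 3 genes were the only ones of 19938 that differed by more than 1 in the same direction in both pairs.

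Plin2 was the fourth PPAR-responsive gene that rose, and the target of the siRNA. Its value was 9.29 in scrambled BSA and 10.03 in scrambled oleate, against 6.95 and 7.63 with Plin2 siRNA. The BSA and oleate arrays overlapped, because the siRNA shifted both, yet the step from BSA to oleate was 0.74 in the scrambled pair and 0.69 in the Plin2 siRNA pair. The fitted change was 0.71 (SE 0.10, adjusted p = 0.0234). It lost its call without the scrambled BSA array (change 0.62, adjusted p = 0.425) and after a further quantile normalization (adjusted p = 0.0561).

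The other measured genes of the PPAR-responsive list did not pass the threshold. Of its 35 genes 30 were measured, 4 rose and 0 fell, and 23 had a fitted change above 0. Over all 19938 genes, 8871 were above 0 and 11067 below. The list median was 0.08 against -0.02 over all genes. It was 0.12 in the scrambled pair and 0.15 in the Plin2 siRNA pair. Both pairs exceeded 0.25 in 8 of the 30, against 1.23% of all genes, and were below -0.25 in 1, Fabp4 (-0.42, pair differences of -0.53 and -0.32), at levels below the gene median. On the 4 BSA and oleate arrays alone 8 of the 30 rose, after quantile normalization 3 did, and without the intensity trend 2. None of the 30 passed (0) without the siRNA term, without moderation or when unnamed probe sets were included. Among members that did not pass were Ucp3, the muscle uncoupling protein (0.74, adjusted p = 0.319), Acaa2, the last enzyme of mitochondrial beta-oxidation (0.65, adjusted p = 0.14), Txnip, an inhibitor of thioredoxin and glucose uptake (0.58, adjusted p = 0.0818) and Acadl, the long-chain acyl-CoA dehydrogenase (0.42, adjusted p = 0.15). Acadl was 10.13 and 10.56 in the scrambled pair and 10.54 and 10.97 in the Plin2 siRNA pair, so that its 2 differences were equal at 0.42. Other classical members had smaller values, such as the dehydrogenase Acadm (0.05), the trifunctional protein subunit Hadha (0.06), the droplet protein Plin5 (0.07), and Lpl, the lipoprotein lipase itself (0.03); these were picked after their values were seen. Cd36, the fatty acid translocase, was 6.07 and 6.51 with scrambled siRNA and 7.89 and 8.13 with Plin2 siRNA (change 0.34, SE 0.28, adjusted p = 0.918). The receptors themselves, chosen after their values were seen, showed no common direction: Ppara differed by 0.35 and -0.15 in the pairs, Pparg by -0.38 and 0.30, and Ppard by -0.28 and -0.06.

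Of the genes that carry fatty acids into the mitochondrion and oxidise them, Cpt1a alone passed the threshold. In the carnitine shuttle, 1 of 10 measured genes rose (Cpt1a), 6 were above 0 and 4 below, and the median was 0.05, with -0.003 in the scrambled pair and 0.13 in the Plin2 siRNA pair. Mlycd, which removes the malonyl-CoA that blocks Cpt1, went from 6.61 to 7.44 and from 6.82 to 7.31 (0.66, SE 0.16, adjusted p = 0.288). Crot, the peroxisomal carnitine octanoyltransferase, stood at 0.25 (adjusted p = 0.647), and Acacb, which makes malonyl-CoA at the mitochondrion, at -0.20 (adjusted p = 0.883). In mitochondrial fatty acid oxidation 18 of 21 genes had a fitted change above 0, against 8871 of all 19938 genes. The list median was 0.07, and 0 passed the threshold. Besides Acaa2 and Acadl, the isomerase Eci2 (0.33, adjusted p = 0.508) and the electron transfer flavoprotein subunit Etfa (0.32, adjusted p = 0.266) had the largest values. Acaa2 differed by 0.80 in the scrambled pair and 0.49 in the Plin2 siRNA pair. Of 14 peroxisomal genes, 12 had a fitted change above 0 (median 0.09), 5 were above 0 in both pairs and 0 passed. The median was -0.003 in the scrambled pair and 0.11 in the Plin2 siRNA pair, and the largest values were those of the thioesterase Acot3 (0.35) and the thiolase Acaa1b (0.27). Respiratory chain genes had a median of 0.03, with 29 of 45 above 0 and 0 past the threshold, and Cox8b, the muscle isoform of a cytochrome oxidase subunit, at 0.42 (adjusted p = 0.511). Regulators of oxidative metabolism had a median of 0.03 over 25 genes, with 0 calls.

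Storage genes were divided. In the droplet coat and lipolysis list, 1 of 22 rose (Plin2) and the median was 0.05. Lipe, hormone-sensitive lipase, was 5.97 and 6.32 in the scrambled pair and 5.99 and 6.33 in the Plin2 siRNA pair (0.34, adjusted p = 0.618). The adipose droplet proteins Plin1 (-0.34) and Plin4 (-0.36) pointed downward, at levels below the gene median. Triglyceride synthesis had a median of 0.00 over 19 genes, with 0 calls. Agpat3, which adds the second acyl chain, came closest: it was 9.92 and 10.39 with scrambled siRNA and 9.67 and 10.25 with Plin2 siRNA (0.53, SE 0.09, adjusted p = 0.0714). Gpat3, which adds the first chain, stood at 0.46 (adjusted p = 0.361), the lipin Lpin3 at -0.38 (adjusted p = 0.316) and the monoacylglycerol acyltransferase Mogat2 at -0.42 (adjusted p = 0.68). Of the 20 uptake and binding genes, 10 were above 0 and 10 below, and 0 passed, with the binding protein Fabp5 at 0.29 (adjusted p = 0.704) and the lipoprotein receptor Vldlr at 0.19 (adjusted p = 0.825).

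Genes of cholesterol synthesis were lower with oleate as a group. Of 23 genes in the early and late parts of the pathway, 19 were measured. All 19 had a fitted change below 0, 18 were lower in both pairs, and 5 fell past the threshold (0.0413% of all probe sets fell). Both pairs were lower by more than 0.25 in 13 of the 19, against 1.97% of all genes. The median change was -0.50, with -0.58 in the scrambled pair and -0.36 in the Plin2 siRNA pair, where all genes had medians of -0.03 and -0.01. The pathway's genes were chosen with earlier results of these data known, so the counts are not independent evidence of its direction. The count depended on the arrays and the fit, and fits without an oleate array borrowed far more of their spread estimate. It was 0 of 19 without the scrambled BSA array, and also 0 without the siRNA term, without moderation, without the intensity trend or when unnamed probe sets were included. It was 12 without the oleate array of the Plin2 siRNA, 9 without either palmitate array, 9 on the 4 BSA and oleate arrays alone, and 8 with a term for siRNA by fatty acid.

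**Figure D2:**
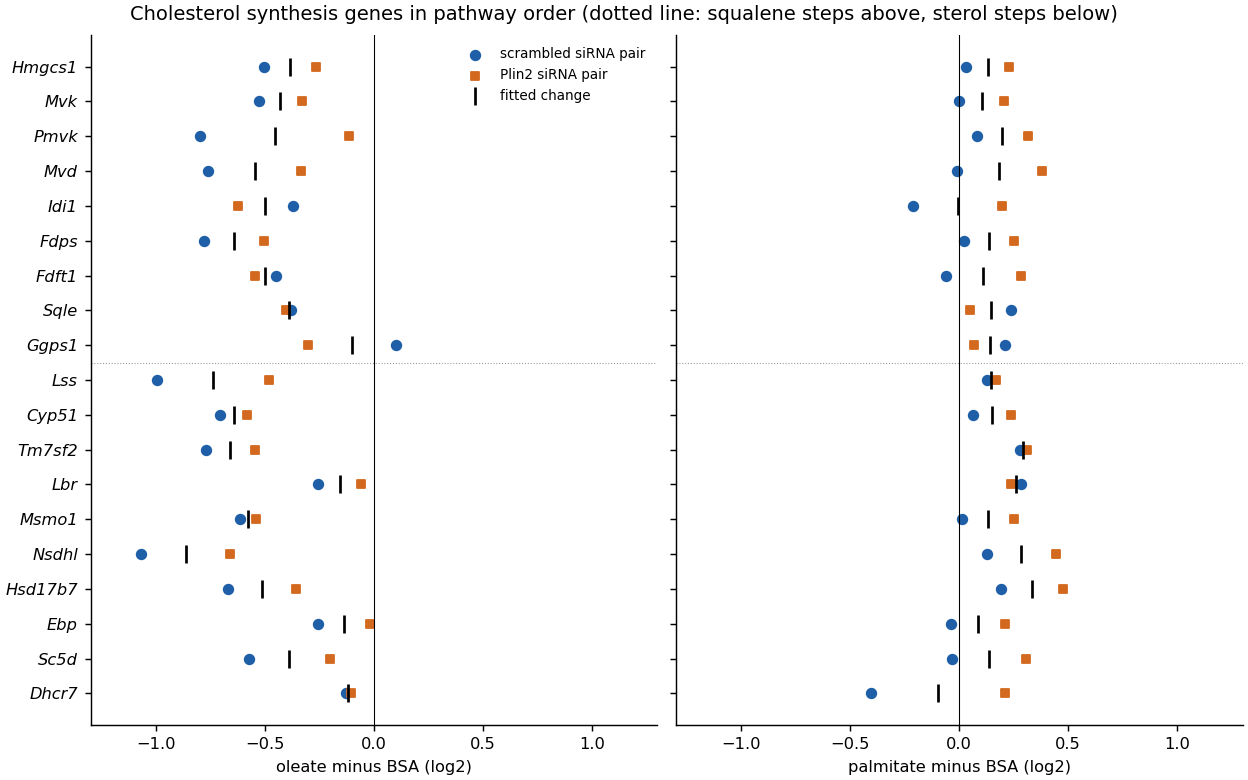
Change of each of the 19 measured cholesterol synthesis genes for oleate minus BSA (left) and palmitate minus BSA (right), in log2 units. Genes run from top to bottom in pathway order, with the branch gene Ggps1 placed after Sqle. Circles are the scrambled pair, squares the Plin2 siRNA pair and bars the fitted change; in the left panel 18 genes have both points below 0, and Ggps1 has 1 on each side.

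The early list ran up to the squalene epoxidase Sqle and included the branch gene Ggps1. In it, 9 of 11 genes were measured and the median was -0.46. Fdps, farnesyl diphosphate synthase, fell from 10.22 to 9.44 with scrambled siRNA and from 9.63 to 9.13 with Plin2 siRNA, without overlap. Its change was -0.64 (SE 0.09, adjusted p = 0.0224), and it was -0.52 (adjusted p = 0.524) without the scrambled BSA array. The other genes of these steps did not pass. Mvd, mevalonate diphosphate decarboxylase, stood at -0.55 (adjusted p = 0.174), Fdft1, squalene synthase, at -0.50 (adjusted p = 0.168) and the isomerase Idi1 at -0.50 (adjusted p = 0.338). Fdft1 went from 10.26 to 9.81 and from 9.95 to 9.40, and Idi1 from 10.33 to 9.96 and from 10.16 to 9.54. The remaining members were Pmvk (-0.46), Mvk (-0.43), the squalene epoxidase Sqle (-0.39), the first committed synthase Hmgcs1 (-0.39) and Ggps1 (-0.10), named after their values were seen. Pmvk showed the widest gap between pairs, -0.80 against -0.12. Ggps1, which diverts farnesyl diphosphate to protein prenylation and not to sterols, was the one gene of the 19 whose pairs differed in sign (0.10 and -0.30).

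In the steps after squalene epoxidase, 10 of 12 genes were measured, the median was -0.55 and 4 fell. Nsdhl, the sterol dehydrogenase of C4 demethylation, was 10.45 in scrambled BSA and 9.38 in scrambled oleate, and 10.07 and 9.41 with Plin2 siRNA. The oleate arrays were close to each other and below both BSA arrays, and the change was -0.86 (SE 0.10, adjusted p = 0.00798). Tm7sf2, a sterol C14 reductase, went from 8.22 to 7.45 and from 8.31 to 7.76 (-0.66, SE 0.10, adjusted p = 0.0356). Cyp51, the lanosterol demethylase, went from 9.80 to 9.10 and from 9.29 to 8.71 (-0.64, SE 0.08, adjusted p = 0.0162). Msmo1, the C4 methyl oxidase, went from 11.55 to 10.93 and from 11.06 to 10.52 (-0.58, SE 0.08, adjusted p = 0.0186). In none of the 4 did an oleate array reach a BSA array. Without the scrambled BSA array their adjusted p ran from 0.139 (Nsdhl) to 0.528 (Tm7sf2), and Tm7sf2 also lost its call without the Plin2 siRNA BSA array (-0.72, adjusted p = 0.09) and after quantile normalization (adjusted p = 0.0854). Lss, lanosterol synthase, had a large but uneven difference, -0.995 and -0.48 in the pairs (fitted -0.74, SE 0.13, adjusted p = 0.093). Hsd17b7, which acts beside Nsdhl, stood at -0.52 (adjusted p = 0.129) and Sc5d at -0.39. The smallest values were those of Ebp at -0.14, Dhcr7 at -0.12 and Lbr, a C14 reductase that also anchors chromatin at the nuclear envelope, at -0.16.

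Among regulators of the pathway, 1 fell and 1 rose. Insig1, which retains Scap and SREBP in the endoplasmic reticulum and is itself an SREBP target, went from 11.03 to 10.29 with scrambled siRNA and from 10.47 to 9.68 with Plin2 siRNA. Both oleate arrays were the lowest, the pair differences of -0.74 and -0.78 were nearly equal, and the fitted change was -0.76 (SE 0.10, adjusted p = 0.0162). Rnf145, a ubiquitin ligase of the endoplasmic reticulum that acts on the sterol-sensing machinery and is raised by LXR, moved the other way. It was 7.85 and 8.76 in the scrambled pair and 7.82 and 8.50 in the Plin2 siRNA pair, and rose by 0.80 (SE 0.10, adjusted p = 0.0156). Without the scrambled BSA array neither passed (Insig1 -0.68, adjusted p = 0.162, and Rnf145 0.68, adjusted p = 0.26). Stard4, a cholesterol carrier under SREBP-2 control, had 2 nearly equal differences of -0.46 and -0.47 (adjusted p = 0.205). Srebf1, the gene of SREBP-1, went from 8.79 to 8.15 and from 8.46 to 8.04 (-0.53, SE 0.09, adjusted p = 0.0978). By contrast Srebf2 stood at -0.04, Scap at -0.07 and Insig2 at 0.10, picked after their values were seen. Of the 15 measured genes of sterol sensing, 1 rose, 1 fell, and the median was -0.04.

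Of the desaturases, 2 fell, while no gene of the fatty acid synthesis list passed the threshold. Fads2, the delta-6 desaturase of polyunsaturated fatty acid synthesis, went from 9.92 to 8.95 in the scrambled pair and from 8.93 to 8.28 in the Plin2 siRNA pair. The groups touched, since scrambled oleate was level with Plin2 siRNA BSA, but each pair fell, and the change was -0.81 (SE 0.09, adjusted p = 0.00798). Scd2, a stearoyl-CoA desaturase of the kind that makes oleate, went from 12.39 to 11.67 and from 12.28 to 11.63 (-0.68, SE 0.07, adjusted p = 0.00636). Its oleate arrays lay close together and below both BSA arrays. Scd1, the desaturase best known from liver and fat, stood at -0.37 (adjusted p = 0.16), with pair differences of -0.35 and -0.38. Without the scrambled BSA array both calls were lost (Fads2 -0.69 and Scd2 -0.60, each with adjusted p = 0.139). The desaturation and elongation list had 13 of 20 genes below 0, with a median of -0.08, and 0 of its other members passed. Among these were the desaturase gene Scd4 at -0.26 (pair differences of -0.46 and -0.07, adjusted p = 0.848), and the delta-5 desaturase Fads1 (-0.19) and the elongase Elovl6 (-0.03), which were named after their values were seen.

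The fatty acid synthesis list had a median of -0.15 (-0.07 where the probe sets of a gene were averaged), 13 of 16 genes below 0, and 0 calls. Acly, which makes cytosolic acetyl-CoA, differed by -0.62 and -0.25 (adjusted p = 0.253), Acss2, the acetyl-CoA synthetase, by -0.61 and -0.15 (adjusted p = 0.512), and Mid1ip1, which activates acetyl-CoA carboxylase, by -0.29 and -0.36 (adjusted p = 0.334). Fasn, the synthase itself, picked after its values were seen, differed by -0.30 and 0.08. The LXR target list, which shares Scd1, Scd2 and Srebf1 with these groups, had a median of -0.14 over 17 genes and 1 fall (Scd2). The cholesterol exporter Abca1, outside lipid synthesis, went from 5.02 to 4.54 and from 4.85 to 4.77 (-0.28, adjusted p = 0.825).

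**Figure D3:**
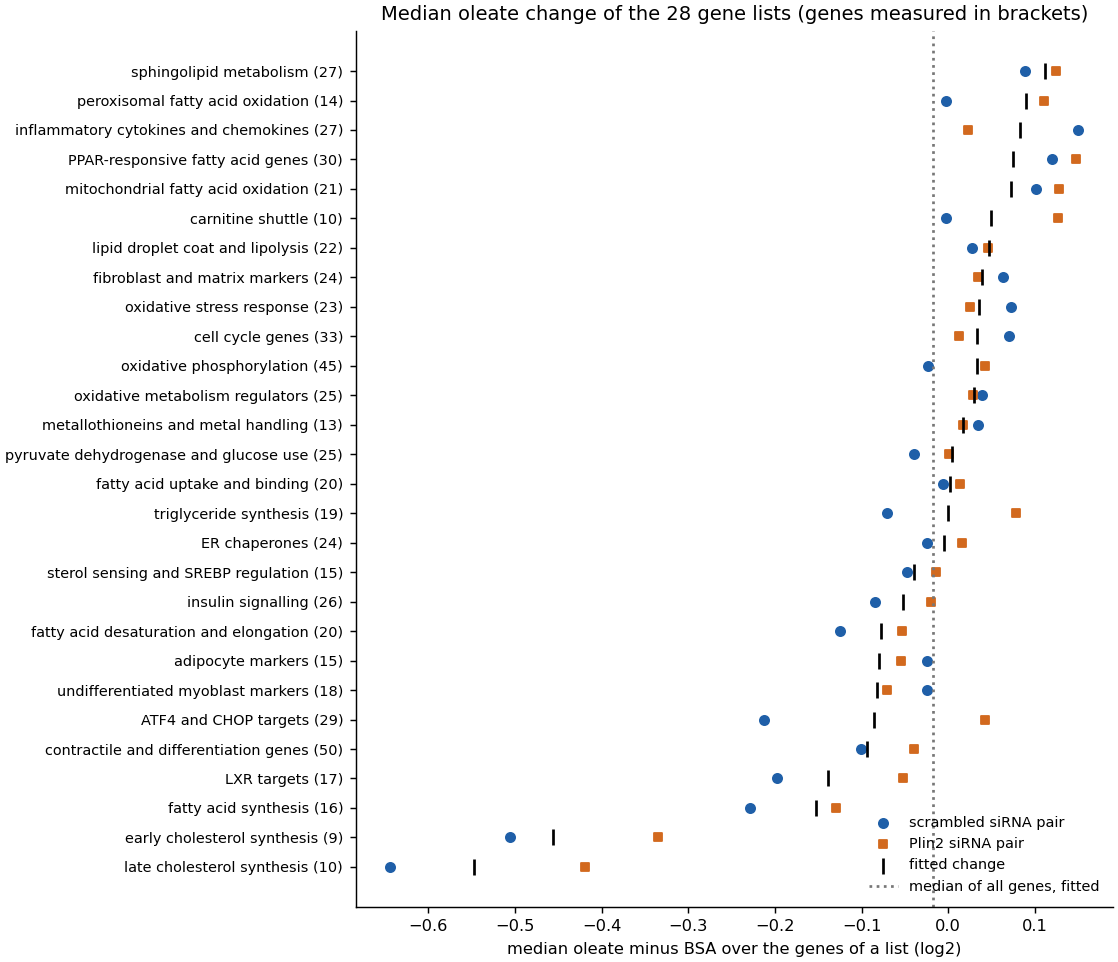
Median change from BSA to oleate (log2) over the measured genes of 28 lists, with the number of genes in brackets. Circles are the scrambled pair, squares the Plin2 siRNA pair, bars the fitted change, and the dotted line the median of all genes (-0.02); the 2 cholesterol synthesis lists stand at -0.46 and -0.55, and the next lowest median is that of fatty acid synthesis at -0.15.

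Glucose genes other than Pdk4 showed no calls. In the list of pyruvate dehydrogenase and glucose use, 1 of 25 rose (Pdk4), 13 were above 0 and 12 below, and the median was 0.00. Pdp2, the phosphatase that reverses what Pdk4 does, went from 5.51 to 4.92 and from 5.47 to 4.88, so that both pairs differed by -0.59 and -0.58 (adjusted p = 0.284). Hexokinase 2, Hk2, stood at -0.26 (adjusted p = 0.549) and the lactate and pyruvate carrier Slc16a1 at 0.23 (adjusted p = 0.637). The sister kinases Pdk1 (0.04) and Pdk2 (0.06), picked after their values were seen, hardly differed. Of 26 insulin signalling genes, 18 were below 0 (median -0.05) and 0 passed, with the glucose transport regulator Tbc1d4 at 0.50 (adjusted p = 0.459), the kinase subunit Pik3cb at -0.26 (adjusted p = 0.601) and Irs2 at -0.23 (adjusted p = 0.884).

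Sphingolipid genes had the highest fitted median of the 28 lists, but not the highest in either pair alone. The fitted median was 0.11, with 0.09 in the scrambled pair and 0.12 in the Plin2 siRNA pair. Of the 27 genes, 21 were above 0, against 8871 of all 19938 genes, and 0 passed. Ugcg, the glucosylceramide synthase, went from 10.84 to 11.35 and from 10.90 to 11.12 (0.37, adjusted p = 0.216). Sgms2, a sphingomyelin synthase, stood at 0.39 (adjusted p = 0.577), the ceramide synthase Cers5 at 0.32 (adjusted p = 0.361) and Kdsr, of the first steps of ceramide synthesis, at 0.32 (adjusted p = 0.524). Only 1 of the 27 exceeded 0.25 in both pairs, so the median reflects many small values.

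Stress and inflammation lists gave no calls except one metallothionein. Mt2, a zinc-binding metallothionein, went from 12.06 to 12.65 and from 12.45 to 12.93, without overlap, and rose by 0.53 (SE 0.08, adjusted p = 0.0356). Its adjusted p was 0.731 without the scrambled BSA array and 0.116 after quantile normalization. Its neighbour Mt1 stood at 0.34 (adjusted p = 0.284), Mt4 at -0.21 and the zinc importer Slc39a8 at -0.24, both at low levels. Metallothionein transcripts are similar in sequence, and probes may not separate them. Of 24 endoplasmic reticulum chaperones, 12 were above 0 and 12 below (median -0.005), with Herpud1 at -0.25 (adjusted p = 0.407), Creld2 at 0.21 (adjusted p = 0.785), Sdf2l1 at -0.16 and Hyou1 at -0.11. ATF4 and CHOP targets had a median of -0.09 that came from the scrambled pair (-0.21, against 0.04 with Plin2 siRNA). There, the growth-arrest gene Ddit4 differed by -1.01 and -0.25 (adjusted p = 0.458), the pseudokinase Trib3 by -0.62 and -0.03 (adjusted p = 0.798) and the hormone Stc2 by -0.24 and -0.12 (adjusted p = 0.917). The oxidative stress list had a median of 0.04 with 0 of 23 called, with Txnip, Sesn1 (0.22), Prdx1 (0.16) and the regulator Nfe2l2 (0.15) as its largest values.

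Chemokines lay above 0 more often than below without passing. Of 27 cytokine and chemokine genes, 17 were above 0 (median 0.08), 4 exceeded 0.25 in both pairs, and 0 passed. Cxcl5, which recruits neutrophils, went from 7.95 to 9.19 and from 9.32 to 9.73 (0.83, SE 0.15, adjusted p = 0.101). The monocyte chemokines Ccl7 (0.63, adjusted p = 0.174) and Ccl2 (0.54, adjusted p = 0.334) also had larger differences in the scrambled pair, 0.83 and 0.80, than in the Plin2 siRNA pair, 0.43 and 0.29. Il1b lay the other way, at -0.43 and -0.41 (adjusted p = 0.576), at values below the gene median. The macrophage marker Ptprc was 3.30 and 3.44 in scrambled BSA and oleate and 3.41 and 3.48 with Plin2 siRNA, and the 4 macrophage markers differed by 0.01 to 0.34.

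Muscle structure genes differed by small amounts, with a larger share below 0 than among all genes. Of 50 contractile and differentiation genes, 40 had a fitted change below 0 and 31 were below 0 in both pairs. Over all 19938 genes, 11067 were below 0 and 6300 were below 0 in both pairs. The list median was -0.09, and 0 passed. The slow myosin Myh7 went from 10.59 to 10.06 and from 10.37 to 10.01 (-0.45, SE 0.09, adjusted p = 0.194). The fast myosin-binding protein Mybpc2 differed by -0.74 and -0.30 (adjusted p = 0.454) and its slow counterpart Mybpc1 by 0.64 and 0.04 (adjusted p = 0.809), while the myogenic factor Myf6 differed by 0.69 and 0.30 (adjusted p = 0.471). Undifferentiated myoblast markers had a median of -0.08 over 18 genes, with Id3 at 0.42 (adjusted p = 0.275), Heyl at -0.37, Vcam1 at 0.33 and Sdc4 at 0.26. Cell cycle genes had a median of 0.03 over 33, with Bub1 at 0.52 (adjusted p = 0.508), Top2a at 0.36, Tk1 at 0.32 and Rrm2 at -0.29. Matrix genes had a median of 0.04 over 24, led by Pdgfra at 0.32 (adjusted p = 0.711), Tnc at -0.29, Tcf21 at -0.21 and Col6a1 at 0.20. Adipocyte markers had a median of -0.08 over 15 measured genes, with Fabp4 at -0.42, Lipe at 0.34, Plin1 at -0.34 and Cidec at -0.32. None of these lists held a call.

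Beyond the lists, 2 further genes passed the threshold. Gja5, connexin 40, a gap junction protein, was 8.57 in scrambled BSA and 7.64 in scrambled oleate, and 8.15 and 7.05 with Plin2 siRNA. It had the largest fall of all genes, -1.01 (SE 0.14, adjusted p = 0.0234), with both oleate arrays below both BSA arrays. Its call was lost without the scrambled BSA array (-0.92, adjusted p = 0.139) and after quantile normalization (adjusted p = 0.0561). Malat1, an abundant nuclear long noncoding RNA, went from 10.71 to 11.44 and from 11.29 to 11.79, and rose by 0.61 (SE 0.07, adjusted p = 0.0125). Without the scrambled BSA array it stood at 0.53 (adjusted p = 0.361).

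When genes were ranked by the smaller of their pair differences, genes outside the sterol and fatty acid groups appeared as well. The top 10 upward were Angptl4, Cpt1a, Pdk4, Ptx3, Ucp3, Plin2, Rnf145, Snord82, Mamdc2 and Galnt5. Ptx3, a secreted pattern-recognition protein of the pentraxin family, went from 5.85 to 7.16 and from 8.06 to 8.90 (1.07, SE 0.17, adjusted p = 0.0554). Galnt5, which starts O-glycans, went from 4.37 to 5.06 and from 5.61 to 6.18 (0.64, adjusted p = 0.235), and the extracellular protein gene Mamdc2 from 6.56 to 7.32 and from 6.14 to 6.75 (0.69, adjusted p = 0.167). The small nucleolar RNA gene Snord82 stood at 0.68 (adjusted p = 0.176), at values of 4.31 to 5.23, below the gene median. The top 10 downward were Gja5, Lrtm1, Insig1, Nsdhl, Fads2, Scd2, Padi2, Olfr622, Macc1 and Cth. Lrtm1, a leucine-rich repeat membrane protein, went from 6.96 to 5.78 and from 5.09 to 4.34 (-0.96, SE 0.19, adjusted p = 0.15). Cth, the cystathionine lyase that makes cysteine and hydrogen sulfide, differed by -0.79 and -0.59 (fitted -0.69, adjusted p = 0.14). Padi2, which converts arginine to citrulline in proteins, stood at -0.64 (adjusted p = 0.203), Macc1 at -0.64 (adjusted p = 0.349) and the olfactory receptor gene Olfr622, at the lower end of the arrays with 2.65 to 3.41, at -0.63 (adjusted p = 0.15).

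The pairs were then set side by side over all genes. Of the 19938 genes, 4599 were higher with oleate in both pairs, 6300 lower in both, and 9039 had pair differences of opposite sign. A difference of more than 1 was found in 21 genes in the scrambled pair and in 9 in the Plin2 siRNA pair. A difference of more than 0.5 in both pairs was found in 17 genes upward and 21 downward, and of more than 0.25 in 246 and 392. The standard deviation of the change over genes was 0.20 in the scrambled pair and 0.19 in the Plin2 siRNA pair, and 268 genes exceeded 0.25 in opposite directions. Each condition has 1 array, and whether the response to oleate differs between the siRNAs was not tested.

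**Figure D4:**
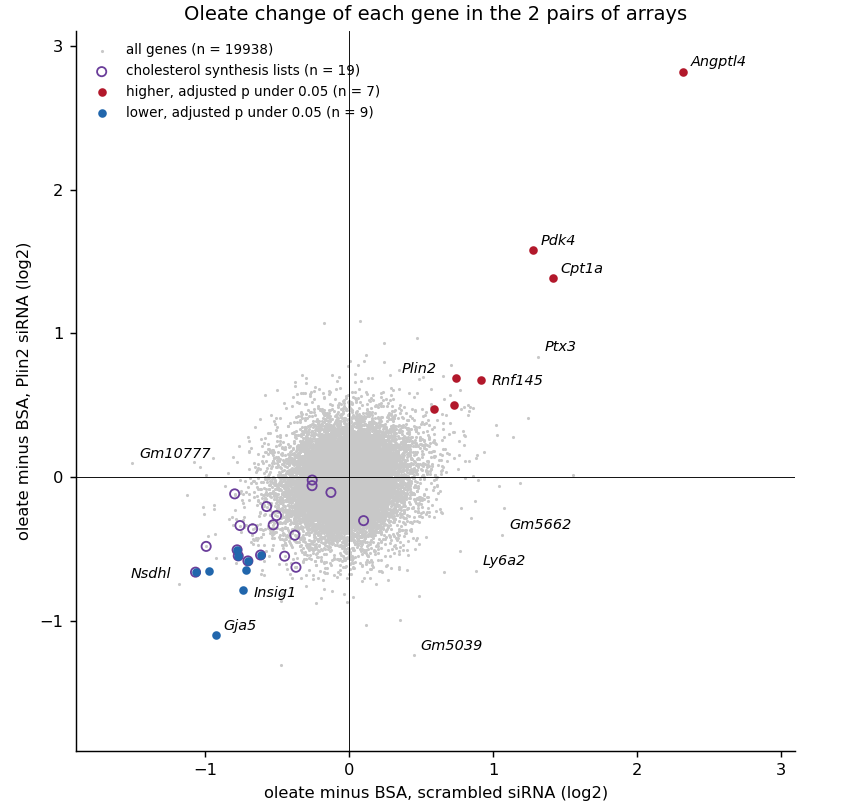
Change from BSA to oleate (log2) of each of 19938 genes in the scrambled pair (horizontal) and the Plin2 siRNA pair (vertical). Red points are the 7 genes that rose, blue points the 9 that fell, and open circles the 19 cholesterol synthesis genes, of which 18 lie to the lower left of 0; Gm5039, Gm5662, Ly6a2 and Gm10777 have differences of opposite sign.

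The direct comparison of oleate with palmitate, at one dose and time, asked whether the response depends on the fatty acid. It called 11 genes of cholesterol synthesis and 3 desaturases (Fads2, Scd1 and Scd2) lower in oleate than in palmitate. Angptl4 and Cpt1a, which rose with oleate, were not called different. The fatty acids differ in the cis double bond and the chain length. Of the 16 genes moved by oleate against BSA, 11 were called here too. Both comparisons use the same oleate arrays, so this overlap is partly built in. Of the probe sets, 57 differed (0.262%), 26 higher and 31 lower in oleate. Leaving out 1 array moved this count widely, to 30 without scrambled palmitate, 112 without scrambled oleate, 440 without Plin2 siRNA palmitate and 538 without Plin2 siRNA oleate. Centring each array on its median gave 30. Fits without an oleate array borrowed far more degrees of freedom for their spread. These were 561.91 without scrambled oleate and 377.44 without Plin2 siRNA oleate, against 9.21 in the main fit. How far the counts of those fits reflect this borrowing was not tested.

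Among the 19 cholesterol genes, 11 were lower in oleate than in palmitate and 0 higher, with a median difference of -0.61. The count was 9 without the scrambled palmitate array, 9 after centring and 8 after quantile normalization, and it was 0 without the siRNA term, without moderation, without the intensity trend or when unnamed probe sets were included. Nsdhl was 10.58 with scrambled palmitate and 10.51 with Plin2 siRNA palmitate, above all BSA and oleate values, and the oleate minus palmitate difference was -1.15 (95% interval -1.36 to -0.94, adjusted p = 0.00096). For Tm7sf2 the difference was -0.95 (-1.17 to -0.74, adjusted p = 0.00198), for Lss -0.88 (-1.17 to -0.60, adjusted p = 0.0253), and for Hsd17b7 -0.85 (-1.06 to -0.64, adjusted p = 0.00377). Cyp51 (-0.79), Fdps (-0.78), Mvd (-0.73), Msmo1 (-0.71), Fdft1 (-0.61), Sqle (-0.53) and Hmgcs1 (-0.52) also passed. Against BSA, the list medians were 0.14 for early and 0.15 for late steps with palmitate, beside -0.46 and -0.55 with oleate, and these values share the BSA arrays.

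**Figure D5:**
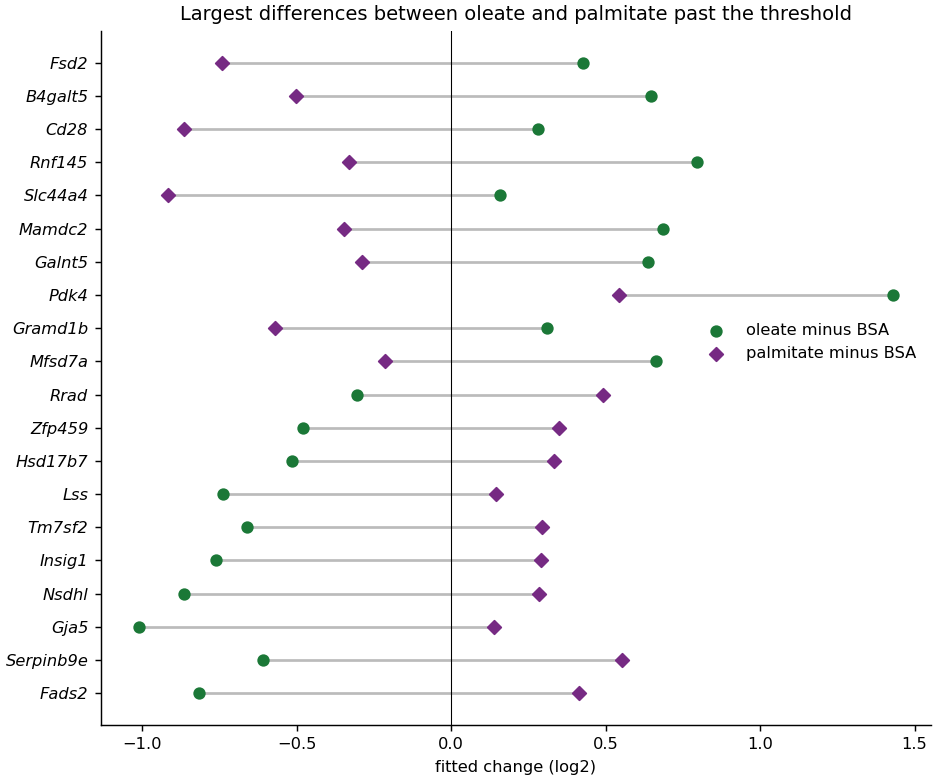
Fitted change against BSA (log2) for oleate (circles) and palmitate (diamonds) of the 20 genes with the largest differences among those past the threshold between the fatty acids, 10 in each direction, ordered by the oleate minus palmitate difference. Both changes share the BSA arrays; Fads2, at the bottom, has the largest gap downward (-1.23) and Fsd2, at the top, the largest upward (1.17).

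Of the genes past the threshold, Fads2 had the largest difference between oleate and palmitate, -1.23 (95% interval -1.43 to -1.03, adjusted p = 0.00069), with palmitate values of 10.26 and 9.42. Insig1 was 11.13 and 10.94 with palmitate, and the difference was -1.05 (-1.27 to -0.84, adjusted p = 0.00129), while Scd2 had a difference of -0.74 (-0.90 to -0.58, adjusted p = 0.00182). Scd1, which did not pass against BSA, had an oleate minus palmitate difference of -0.50 (-0.66 to -0.34, adjusted p = 0.0253). Gja5 was 8.45 and 8.55 with palmitate, near its BSA values, with a difference of -1.15 (-1.46 to -0.84, adjusted p = 0.00683). Further genes lower in oleate than in palmitate were the muscle GTPase Rrad (-0.80, adjusted p = 0.00379), the protease inhibitor Serpinb9e (-1.16, adjusted p = 0.0478) and the zinc-finger gene Zfp459 (-0.83, adjusted p = 0.0355). Zfp459 had low values, from 3.05 to 4.27 over the 6 arrays, below the gene median.

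Rnf145 was higher in oleate than in palmitate by more than any other of the 16 genes called against BSA. It was 7.63 and 7.38 with palmitate, below its BSA values, and higher in oleate by 1.13 (95% interval 0.91 to 1.35, adjusted p = 0.00096). B4galt5, a galactosyltransferase that makes lactosylceramide, was 8.75, 9.58 and 8.29 in scrambled BSA, oleate and palmitate, and 8.82, 9.28 and 8.28 with Plin2 siRNA. It was higher in oleate by 1.15 (0.93 to 1.37, adjusted p = 0.00096). Gramd1b, a cholesterol transporter of the endoplasmic reticulum, was higher by 0.88 (SE 0.15, adjusted p = 0.0422), with palmitate below BSA (-0.57) and oleate above it (0.31). Fsd2 (1.17, adjusted p = 0.0264), Cd28, a receptor best known from T cells (1.14, adjusted p = 0.0487), Slc44a4 (1.07, adjusted p = 0.0422), Mamdc2 (1.03, adjusted p = 0.012), Galnt5 (0.92, adjusted p = 0.0308) and Mfsd7a (0.88, adjusted p = 0.0217) also passed. For Slc44a4 the gap came from palmitate, which stood at -0.92 against BSA beside 0.16 for oleate. Palmitate also stood further from BSA than oleate for Cd28 (-0.86 beside 0.28) and Fsd2 (-0.74 beside 0.43). For Mamdc2, Galnt5 and Mfsd7a oleate stood further. The oleate pair differences of Cd28 had opposite signs, 0.77 with scrambled siRNA and -0.215 with Plin2 siRNA.

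The rises of fatty acid use differed in how far palmitate followed. Pdk4 was 8.14 and 8.23 with palmitate, between BSA and oleate, and higher in oleate by 0.89 (95% interval 0.63 to 1.14, adjusted p = 0.0112). This call was lost without the scrambled palmitate array, where 0 of the 30 PPAR-responsive genes passed. With all arrays 1 of them was higher in oleate; leaving out scrambled oleate gave 2, and leaving out the Plin2 siRNA array of oleate or of palmitate gave 4 or 5. Angptl4 was 10.43 and 10.06 with palmitate, and the oleate value was higher by 0.38 (0.15 to 0.62, adjusted p = 0.294). Cpt1a was 9.12 and 9.33, with a difference of 0.22 (0.04 to 0.40, adjusted p = 0.464), Plin2 was 10.10 and 7.45, with 0.06 (-0.16 to 0.27, adjusted p = 0.923), Malat1 differed by 0.21 (0.05 to 0.37, adjusted p = 0.428) and Mt2 by 0.36 (0.19 to 0.53, adjusted p = 0.122). For these 5 genes a difference between the fatty acids was not called, and the intervals reach up to 0.62. Side by side, the change from BSA was 2.57 with oleate and 2.19 with palmitate for Angptl4, 1.40 and 1.18 for Cpt1a, 1.43 and 0.54 for Pdk4, and 0.71 and 0.66 for Plin2, with the BSA arrays shared.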

How the data were processed

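Total RNA of 6 C2C12 cultures was hybridised to Affymetrix whole-transcript arrays, 1 per condition. The authors deposited 1 log2 value per probe set, made with RMA (background correction, normalization between arrays and summary of probes), per the submitters' processing notes. The RMA version is not given in the sources used here, and base 2 was inferred from RMA's usual output and from the values' range. RMA shrinks differences at low signal. The 6 arrays had medians of 4.94 to 5.02, and they were not scaled or filtered further.

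Gene names came from the platform annotation: 21789 had 1 symbol, 1621 several and 12146 were not listed and are unnamed here. By Entrez ID, 21698 matched RefSeq (GRCm38.p6), and 0 symbols changed. Of the genes, 999 had several probe sets and are given by the one with the highest mean.

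A linear model with treatment and siRNA as terms was fitted to all 6 arrays (R 4.3.3, limma 3.58.1, eBayes with an intensity trend, two-sided), which left 2 residual degrees of freedom and 9.21 borrowed ones. The fit was tested on simulated data. The oleate change is the mean of the 2 pair differences. The palmitate arrays add to the estimate of the spread.

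The genes, the 28 lists, the naming rule and the alternatives were chosen with earlier results of these data known. Named were all genes past the threshold, up to 4 genes per list with the largest change in one direction in both pairs, 10 in each direction by the smaller pair difference, up to 10 in each direction that passed between the fatty acids, and the 4 genes with opposite pairs furthest apart; others are said to be picked after their values were seen. Lists got no test of their own. No 2 arrays held identical values.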

Additional observations from a re-analysis of the deposited data

Results flagged for a closer look

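Of the 4 genes whose oleate changes were furthest apart with opposite signs in the 2 pairs, 3 differed by more than 0.25 each way, and Gm10777 had -1.51 and 0.10. Gm5039 differed by 0.45 in the scrambled pair and -1.24 in the Plin2 siRNA pair, a gap of 1.68. Its values were 3.52 and 3.97 in scrambled BSA and oleate and 3.61 and 2.38 with Plin2 siRNA, all below the gene median. Ly6a2, of the Ly6 family of surface proteins, differed by 0.88 and -0.65, a gap of 1.53, at 6.10 and 6.98 with scrambled siRNA and 5.32 and 4.67 with Plin2 siRNA. Gm5662 differed by 1.06 and -0.40, a gap of 1.46, at 2.62 and 3.68 with scrambled siRNA and 3.31 and 2.91 with Plin2 siRNA. Each of these values rests on 1 array per condition, and the difference between the siRNAs was not tested.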

How the results depend on the processing

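The count of 16 for oleate against BSA was 64 on the BSA and oleate arrays alone, 37 with a siRNA by fatty acid term, 31 without the probe sets of lowest mean and 2 without the trend. It was 0 with all probe sets (unadjusted p under 0.05: 2112), without moderation (1193) and without the siRNA term (524), and with 1 array left out it ran from 3 to 262. The count of 57 for oleate against palmitate was 86 on those arrays alone, 30 after centring and 25 after quantile normalization. It was 0 with all probe sets (unadjusted 2464), without moderation (1306), without the siRNA term (598) and without the trend (1686), and with 1 array left out it ran from 30 to 538. The other alternatives gave 12 to 20 and 54 to 85. Fits without an oleate array borrowed 561.91 or 377.44 degrees of freedom, against 9.21 in the main fit. Of the 16 called genes, 0 changed direction in any alternative, and each lost its call in 3 to 7 of 17. Of 140 recomputed list medians, 20 moved by more than the SD of the 2 pair medians. That SD comes from the same pair medians, so it is a poor yardstick for the median of a single pair. With the scrambled pair alone the medians were 0.12 (PPAR-responsive), 0.10 (mitochondrial oxidation), -0.003 (peroxisomal), 0.028 (droplet), -0.23 (fatty acid synthesis), 0.039 (oxidative regulators), -0.04 (glucose use), -0.023 (oxidative phosphorylation), 0.034 (metallothioneins), 0.072 (oxidative stress), -0.025 (myoblast), 0.063 (matrix) and -0.025 (adipocyte). With the Plin2 siRNA pair alone they were 0.15 (PPAR-responsive), 0.13 (mitochondrial oxidation), -0.34 (early cholesterol), -0.014 (sterol sensing), -0.039 (contractile) and -0.055 (adipocyte). With the mean of each gene's probe sets, fatty acid synthesis stood at -0.07. The cause of these shifts was not tested. The siRNA term is the block of the design; no replicate numbers exist beyond 1 array per condition. No paired analysis was possible because each group holds 1 array, other than the pairing by siRNA that the fit already has. The number of arrays limits all calls, and genes near the bottom of the range have little signal over background.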
